A study of Mus musculus with 11 samples.

Results

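The matrix metalloproteinases (MMPs), the ADAM proteases, the ADAMTS proteases with the ADAMTS-like (ADAMTSL) proteins, and the tissue inhibitors of metalloproteinases (TIMPs) were followed by RNA sequencing in normal mouse brain and in 2 mouse models of glioma. Members were taken by gene symbol, with Mmp10 left out, and kept where at least 3 of the 11 libraries reached 1 FPKM (a fragment count divided by transcript length and by library size). Of 83 symbols that fit, 46 were kept: 13 of 22 MMP, 11 of 33 ADAM, 14 of 19 ADAMTS, 4 of 5 ADAMTSL and all 4 of 4 TIMP genes. They are part of 14491 genes tested. Among the 37 others, 11 were listed at 0 in every library. Another 5, Adamtsl1, Adamts5, Adamts19, Mmp23 and Mmp25, reached 1 FPKM in some library, and the highest such value was 4.11 FPKM (Mmp25, NRAS tumor 3). For 10 of the 46, the mean in normal brain was under 1 FPKM: Mmp3, Mmp9, Mmp12, Mmp13, Mmp19, Mmp28, Adamts7, Adamts14, Adamtsl3 and Timp1. These entered only through tumor libraries, so a count of higher members describes the 46 and supports nothing by itself. Adamts16 reached 1 FPKM in normal brain alone, so its falls in tumors support nothing by themselves either. Adamts17 reached it in normal brains and PDGFB tumors but in no NRAS tumor, and the same holds for its fall in NRAS tumors.

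Both tumor models were made with the Sleeping Beauty transposon, which moves genes from injected plasmids into host DNA. Plasmids for the transposase, firefly luciferase, SV40 large T antigen (which binds p53 and Rb) and either NRASG12V, a constitutively active NRAS, or the growth factor PDGFB were given into the right lateral ventricle of neonatal mice. Tumor tissue was cut out under GFP light at mid-stage of tumor growth, so a library holds tumor cells together with host cells of the region. There were 4 NRAS tumors and 4 PDGFB tumors, which share large T antigen, and 3 samples of wild-type normal brain without any of the plasmids named. The design text names FVB mice, whereas the sample labels give B6 for 10 libraries and FVB for normal brain 3 alone. In the titles, normal brain 1 is matched with NRAS tumor 2 and normal brain 3 with PDGFB tumor 1. Whether replicates come from separate animals is not stated. A p-value here therefore covers only the spread among these libraries, and that spread may be technical. Title numbers run from 1834 to 1838 for the normal brains with NRAS tumors 1 and 2, and from 2038 to 2046 for NRAS tumors 3 and 4 with the PDGFB tumors; their meaning is not stated. No number series holds both PDGFB tumors and normal brains.

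MMPs, ADAMs and ADAMTSs are zinc-dependent proteases of the metzincin clan. MMPs, made as inactive proenzymes, cut matrix proteins and other proteases; most ADAMs sit in the membrane and shed the outer parts of growth factors, cytokines and adhesion molecules; ADAMTSs are secreted and cut proteoglycans and procollagens. TIMPs bind the active site of these enzymes, and in brain the balance is known for its part in remodeling of the hyaluronan and lectican matrix, in synapse biology and in invasion by glioma cells.

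Values below are FPKM, in replicate order (normal brains 1 to 3, tumors 1 to 4), with mean ± SD (n = 3 or 4). A fold change is a difference of group means of log2(FPKM + 1), ± SE, which understates the change of low genes. Adjusted p-values are from limma over all 14491 genes, two-sided, and "rose" or "fell" means an adjusted p under 0.05. Against normal brain, 19 of 46 members rose and 14 fell in NRAS tumors, where 62.3% of all genes tested were called (32.0% higher and 30.3% lower). In PDGFB tumors 21 rose and 12 fell, where 58.5% of all genes were called (29.3% higher and 29.2% lower). The members' share, 71.7% in each comparison, stands beside those backgrounds and is not read as a result about the members. The 2 comparisons share the 3 normal brains, so their values are only set side by side. Between the models, 9 members were higher and 11 lower in NRAS tumors than in PDGFB tumors, or 43.5% of the 46, where 26.6% of all genes were called (14.3% higher and 12.2% lower). The median fold change over the 46 was 0.26 in NRAS tumors and 0.52 in PDGFB tumors against normal brain, beside 0.01 and 0.04 over all genes tested. As 10 of the 46 entered only through tumor libraries, these medians support nothing by themselves either.

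**Figure D1:**
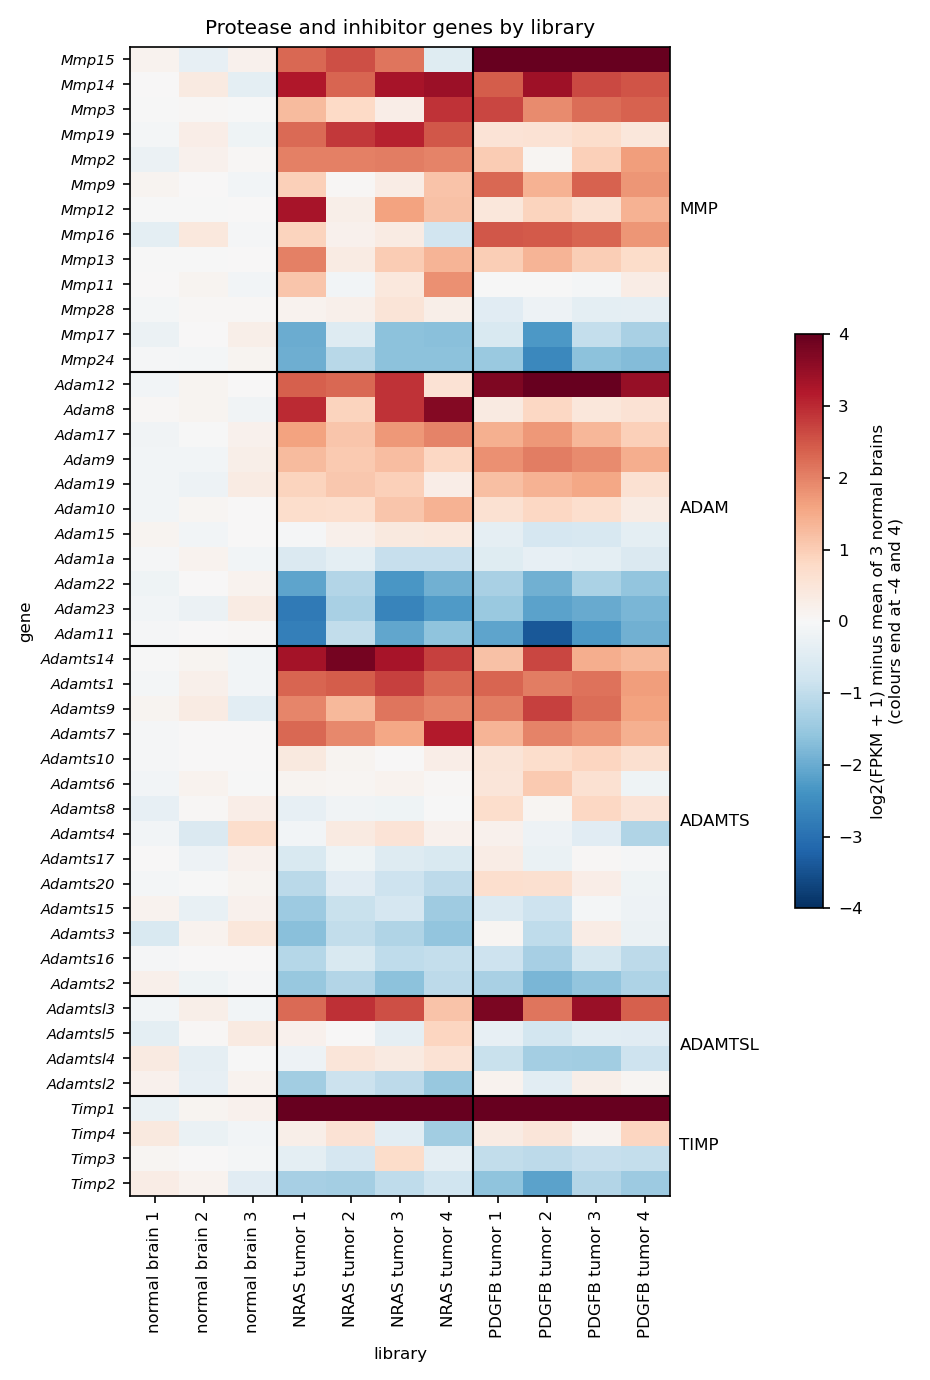
Log2(FPKM + 1) of 46 genes (rows, by family) in 11 libraries (columns), minus the mean of the 3 normal brains; red is higher, blue lower, and colours end at -4 and 4. Timp1, Mmp14, Adamts1 and Adamts14 are red in all 8 tumors, Mmp15 and Adam12 are darkest in PDGFB tumors, Adam8 and Mmp19 in NRAS tumors, and Adam11, Adam22, Adam23 and Mmp24 are blue in all 8.

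The members with the highest levels were not the same in the 3 groups. On the FPKM scale, which is per length, Timp2 had the highest mean of the 46 in normal brain (134 FPKM), ahead of Timp3, Adam22, Adam11 and Mmp17. In NRAS tumors the first place was taken by Timp1 (195 FPKM), ahead of Timp2 and Mmp14. In PDGFB tumors Mmp15 led by far (304 FPKM), followed by Adam9 at 75.5 FPKM.

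Among the MMPs, 7 of 13 rose and 2 fell in NRAS tumors, and 8 rose and 2 fell in PDGFB tumors. Over all genes tested, 32.0% were higher and 30.3% lower in NRAS tumors, and 29.3% and 29.2% in PDGFB tumors. Of the 13 MMPs, 6 (Mmp3, Mmp9, Mmp12, Mmp13, Mmp19 and Mmp28) entered only through tumor libraries, so the counts of rises support nothing by themselves. The membrane-type MMPs, which are anchored at the cell surface, split into a group that rose in at least 1 model (Mmp14, Mmp15, Mmp16) and a group that fell in both (Mmp17, Mmp24). Mmp14 (chromosome 14, 54431612 to 54445364, GRCm38) encodes the enzyme that activates pro-MMP2 at the cell surface. Its levels were 5.39, 7.17 and 3.82 FPKM in normal brain, 57.2, 30.5, 60.9 and 67.4 in NRAS tumors and 32.6, 65.7, 38.2 and 34.9 in PDGFB tumors. All 8 tumors lay above all normal brains, and the tumor models overlapped. The fold change was 3.06 ± 0.31 (limma adjusted p = 3.15e-05) in NRAS tumors and 2.74 ± 0.31 (adjusted p = 5.66e-05) in PDGFB tumors, and between the models it was 0.33 ± 0.29 (adjusted p = 0.438).

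Mmp15 (chromosome 8, 95352268 to 95375080), also membrane-bound, had the largest difference between the models of all 46 members. It was listed at 9.59, 6.64 and 9.73 FPKM in normal brain, at 45.4, 55.9, 41.2 and 5.85 in NRAS tumors, and at 307, 263, 363 and 284 in PDGFB tumors. Every PDGFB tumor lay above every other library, whereas NRAS tumor 4 lay below all normal brains. Mmp15 rose by 4.99 ± 0.58 in PDGFB tumors (adjusted p = 6.97e-05) and was lower in NRAS than in PDGFB tumors by 3.36 on the log2 scale (-3.36 ± 0.54, adjusted p = 0.00182). Against normal brain it rose by 1.63 ± 0.58 in NRAS tumors (adjusted p = 0.0302). That last call was lost when any normal brain or NRAS tumor 1, 2 or 3 was left out (adjusted p = 0.0591 to 0.0939, fold change 1.32 to 1.72), and also with all rows tested or with PDGFB tumors out of the fit. Without NRAS tumor 4, the 1 tumor below normal brain, the rise of Mmp15 was 2.335 (adjusted p = 1.83e-05) and the difference between the models -2.655 (adjusted p = 2.95e-05).

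Mmp16 (chromosome 4, 17852893 to 18119145), a further membrane-type enzyme, had 3.15, 6.43 and 4.37 FPKM in normal brain, 9.14, 5.15, 5.86 and 2.19 in NRAS tumors, and 29.4, 28.9, 26.7 and 17.7 in PDGFB tumors. PDGFB tumors did not overlap the other groups, and NRAS tumors lay on both sides of normal brain. It rose by 2.26 ± 0.35 in PDGFB tumors (adjusted p = 0.00036), with a difference of -2.11 ± 0.32 between NRAS and PDGFB tumors (adjusted p = 0.00143). In NRAS tumors against normal brain the fold change was 0.15 ± 0.35 (adjusted p = 0.729).

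Levels of Mmp15 and Mmp16 can be set beside markers of oligodendrocyte progenitors, the cells that carry the PDGF receptor PDGFRA. The summed FPKM of 6 such markers (Pdgfra, Cspg4, Olig1, Olig2, Sox10, Gpr17) was 110.6 to 190.9 in normal brain, 741.3, 374.7, 331 and 153.1 in NRAS tumors 1 to 4, and 1268 to 1561 in PDGFB tumors. Of these 6, 4 rose in NRAS tumors, 5 rose in PDGFB tumors, and 5 were lower in NRAS than in PDGFB tumors. For all genes tested these shares were 32.0%, 29.3% and 12.2%. NRAS tumor 4 had the lowest sum among the tumors and also the lowest Mmp15, Mmp16 and Adam12 among them. NRAS tumor 1 had the highest sum and Mmp16 of its group, but Mmp15 was highest in NRAS tumor 2 and Adam12 in NRAS tumor 3. PDGFB tumor 3 had the highest sum, Mmp15 and Adam12 of its group. PDGFB tumor 2 had the lowest sum and Mmp15, whereas PDGFB tumor 4 had the lowest Mmp16 and Adam12. The part of cell makeup in these results was not tested, and in bulk tissue fewer cells of a type and less RNA per cell cannot be told apart.

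Mmp17 and Mmp24 fell in both models. Mmp17, a GPI-anchored MMP, was at 32.2, 38.8 and 45.5 FPKM in normal brain, at 8.95, 26.9, 11.7 and 11.3 in NRAS tumors and at 24.8, 6.97, 19.2 and 15.2 in PDGFB tumors. All tumors were below all normal brains. The fold changes were -1.45 ± 0.41 (adjusted p = 0.00968) and -1.29 ± 0.41 (adjusted p = 0.018), and the latter was -1.18 without normal brain 3 (adjusted p = 0.0654). Within title numbers 1834 to 1838, or with the number series as a covariate, Mmp17 kept its sign in NRAS tumors but not its call (adjusted p = 0.0592 to 0.0638). With that covariate its fold change in PDGFB tumors was -0.879 ± 0.684 (limma adjusted p = 0.336).

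Mmp24, whose enzyme is known from neurons, had 9.86, 9.60 and 10.9 FPKM in normal brain, 1.88, 4.13, 2.57 and 2.56 in NRAS tumors and 3.02, 0.845, 2.59 and 2.37 in PDGFB tumors. No tumor reached the normal range. It fell by 1.59 on the log2 scale in NRAS tumors (SE 0.27, adjusted p = 0.000646) and by 1.85 in PDGFB tumors (SE 0.27, adjusted p = 0.000254). Its 3′ end overlaps BC029722 on the other strand by 637 bases, and without a stated strand setting reads there cannot be assigned.

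**Figure D2:**
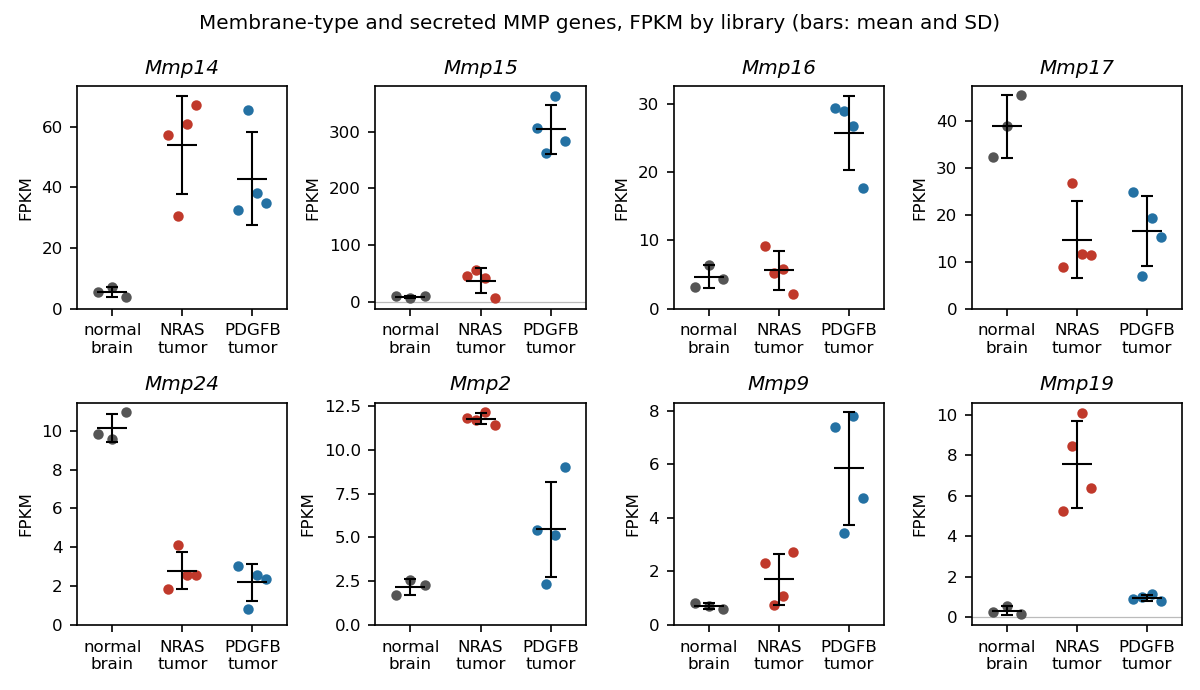
FPKM by library (points) with group mean and SD (bars) for 8 MMP genes in normal brain (n = 3), NRAS tumors (n = 4) and PDGFB tumors (n = 4); each panel has its own linear axis. Mmp15 and Mmp16 stand apart in PDGFB tumors, Mmp2 and Mmp19 in NRAS tumors, and Mmp17 and Mmp24 are lower in both.

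The gelatinases, secreted enzymes that cut denatured collagen and basement membrane, differed between the models in opposite ways. Mmp2 was at 1.70, 2.59 and 2.28 FPKM in normal brain, at 11.8, 11.7, 12.2 and 11.4 in NRAS tumors and at 5.40, 2.36, 5.12 and 8.99 in PDGFB tumors. NRAS tumors lay above every other library and within a narrow range (11.8 ± 0.31, SD, n = 4), while PDGFB tumor 2 was within the normal range. The rise was 2.01 ± 0.29 (adjusted p = 0.000252) in NRAS tumors and 0.93 ± 0.29 (adjusted p = 0.0168) in PDGFB tumors. Without normal brain 1 the latter was 0.81 (adjusted p = 0.0666). NRAS exceeded PDGFB tumors by 1.08 ± 0.27 (adjusted p = 0.0128), a call that ended within title numbers 2038 to 2046 (1.09, adjusted p = 0.0946), where only NRAS tumors 3 and 4 remain.

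Mmp9, the other gelatinase, had 0.814, 0.700 and 0.587 FPKM in normal brain, 2.32, 0.738, 1.07 and 2.71 in NRAS tumors and 7.39, 3.44, 7.80 and 4.76 in PDGFB tumors. Here the PDGFB tumors were above all other libraries. Mmp9 rose by 1.96 ± 0.31 in PDGFB tumors (adjusted p = 0.000375) and was lower in NRAS than in PDGFB tumors (-1.35 ± 0.28, adjusted p = 0.00606). In NRAS tumors against normal brain its fold change was 0.60 ± 0.31 (adjusted p = 0.107; 0.79 and adjusted p = 0.0348 without NRAS tumor 2). Neutrophils are a well-known source of MMP9. The summed FPKM of 6 neutrophil markers was 2.99 to 4.03 in normal brain, 11.2 to 68.2 in NRAS tumors and 3.04 to 6.26 in PDGFB tumors, and the part of these cells in the Mmp9 levels was not tested.

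Mmp19, a secreted MMP that cuts basement membrane proteins, marked NRAS tumors. Its levels were 0.255, 0.565 and 0.159 FPKM in normal brain, 5.26, 8.43, 10.1 and 6.40 in NRAS tumors and 0.911, 0.978, 1.14 and 0.811 in PDGFB tumors. The 3 groups did not overlap. It rose by 2.67 ± 0.20 in NRAS tumors (adjusted p = 6.19e-06) and exceeded PDGFB tumors by 2.09 ± 0.19 (adjusted p = 0.000147). The smaller rise in PDGFB tumors, 0.57 ± 0.20 (adjusted p = 0.0318), was lost when normal brain 1 or 3 or PDGFB tumor 1, 2 or 3 was left out (adjusted p = 0.0536 to 0.118), and with all rows tested (adjusted p = 0.052). With the number series as a covariate, that rise was 0.336 ± 0.333 (limma adjusted p = 0.451). Mmp19 overlaps Tmem198b on the other strand by 789 bases at its end, and Tmem198b had 6.22, 21.5 and 20.5 FPKM as group means.

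Mmp28, or epilysin, passed the test between the models and missed it against normal brain. It was at 0.773, 0.918 and 0.911 FPKM in normal brain, at 1.05, 1.14, 1.64 and 1.17 in NRAS tumors and at 0.376, 0.628, 0.433 and 0.449 in PDGFB tumors. All NRAS tumors were above and all PDGFB tumors below the normal range. Only NRAS tumors reached 1 FPKM, so Mmp28 passed the filter through the group where it is highest. The difference between NRAS and PDGFB tumors was 0.61 ± 0.13 (adjusted p = 0.00702), and 0.28 with quantile normalization (adjusted p = 0.189). Against normal brain the values were 0.26 ± 0.14 (adjusted p = 0.127) and -0.35 ± 0.14 (adjusted p = 0.0553). The latter passed in 5 of 19 alternatives, 1 of them without NRAS tumor 3 (adjusted p = 0.0453), and the former with all rows tested (adjusted p = 0.0483).

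Mmp3, Mmp12 and Mmp13, a stromelysin, the macrophage elastase and a collagenase, belong to the Mmp gene cluster of chromosome 9 (7272514 to 7699585, GRCm38), which holds 9 genes of the symbol rule. The other 6 of the cluster were below the filter and did not exceed 0.429 FPKM in any library. Genes of this cluster are textbook targets of the transcription factor AP-1 (FOS and JUN), so the 100 bases before the start of the 3 kept genes are shown, from RefSeq promoters (GRCm38.p6, plus strand). Capitals mark the AP-1 motif TGANTCA, which reads the same on both strands.
Mmp3 (chr9:7445722-7445821): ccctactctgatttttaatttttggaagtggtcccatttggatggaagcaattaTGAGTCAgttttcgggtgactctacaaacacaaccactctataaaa
Mmp12 (chr9:7347274-7347373): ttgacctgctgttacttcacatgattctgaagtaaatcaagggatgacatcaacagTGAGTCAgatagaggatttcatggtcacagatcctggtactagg
Mmp13 (chr9:7272414-7272513): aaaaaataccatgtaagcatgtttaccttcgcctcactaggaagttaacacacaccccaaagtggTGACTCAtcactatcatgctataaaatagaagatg
The motif begins 46, 44 and 35 bases before the start in Mmp3, Mmp12 and Mmp13. For Mmp12, RefSeq lists 2 starts, and the stretch shown belongs to the downstream one, inside the annotated gene; the window of the other start holds no match. Over windows from 250 bases before to 50 after a start, 8.97% of 27025 genes hold the motif, as do 7 of the 9 cluster genes, 4 of which (Mmp1a, Mmp1b, Mmp7 and Mmp20) are among those below the filter. Of the members of all families with a window, 4 of 31 (12.9%) hold it, the fourth being Adam19. A match is a description of these letters and says nothing of binding.

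Mmp3 was listed at 0, 0.0431 and 0 FPKM in normal brain, at 1.44, 0.753, 0.223 and 6.55 in NRAS tumors and at 5.52, 2.79, 3.78 and 4.21 in PDGFB tumors. Every tumor exceeded every normal brain, and NRAS tumors spread most, with number 4 the highest library of all. It rose in PDGFB tumors (2.297 ± 0.48, adjusted p = 0.00205). In NRAS tumors the change was 1.30 ± 0.48 (adjusted p = 0.0356), and leaving out any normal brain or NRAS tumor 1 ended that call (adjusted p = 0.0602 to 0.0825), as did 5 other settings (adjusted p = 0.0663 to 0.165). Between the models Mmp3 passed only without NRAS tumor 4 (-1.52, adjusted p = 0.00348).

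Mmp13 had group means of 0.00979, 1.51 ± 1.20 and 1.06 ± 0.38 FPKM in normal brain, NRAS tumors and PDGFB tumors, and was at 0 in 2 normal brains. It rose in both models (1.19 ± 0.32, adjusted p = 0.00795, and 1.01 ± 0.32, adjusted p = 0.0186), the latter lost without normal brain 2 (adjusted p = 0.0503). The call in NRAS tumors was lost within title numbers 1834 to 1838 (adjusted p = 0.0918). Mmp12 had means of 0.0698, 3.36 ± 4.16 and 0.977 ± 0.596 FPKM, with NRAS tumors running from 0.272 to 9.48. Its rise in NRAS tumors was 1.58 ± 0.55 (adjusted p = 0.0259), lost when any normal brain was left out (adjusted p = 0.0617 to 0.0636) and in 5 other settings (adjusted p = 0.0542 to 0.13). In PDGFB tumors Mmp12 had 0.84 ± 0.55 (adjusted p = 0.209), which passed without NRAS tumor 1 (adjusted p = 0.0425) and in 2 other settings. Mmp11, a stromelysin activated by furin inside the cell, passed no comparison over all libraries: NRAS tumors ran from 0.965 to 6.45 FPKM around a normal mean of 1.11 (fold change 0.82 ± 0.36, adjusted p = 0.068). Without NRAS tumor 2 it passed against normal brain (1.13, adjusted p = 0.00646) and between the models (1.07, adjusted p = 0.0146).

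Among the ADAMs, 6 of 11 rose and 4 fell in NRAS tumors, while 5 rose and 5 fell in PDGFB tumors. The shares over all genes tested were 32.0% higher and 30.3% lower in NRAS tumors, and 29.3% and 29.2% in PDGFB tumors. Adam1a, Adam11, Adam22 and Adam23 fell in each. The classic sheddases are described first. Adam17 encodes TACE, the enzyme that frees TNF and ligands of the EGF receptor. It had 6.93, 7.70 and 8.78 FPKM in normal brain, 25.6, 17.7, 28.1 and 34.0 in NRAS tumors and 22.6, 28.2, 21.2 and 16.1 in PDGFB tumors. All tumors were above all normal brains, with fold changes of 1.60 ± 0.22 (adjusted p = 0.000211) and 1.37 ± 0.22 (adjusted p = 0.000466). Between the models the difference was 0.24 ± 0.21 (adjusted p = 0.43). Adam10, which cleaves Notch, APP and cadherins, had means of 26.1 ± 1.89, 53.2 ± 13.2 and 40.6 ± 5.97 FPKM. It rose by 0.97 ± 0.18 in NRAS tumors (adjusted p = 0.00113) and by 0.61 ± 0.18 in PDGFB tumors (adjusted p = 0.0142; 0.56 and adjusted p = 0.0545 without normal brain 1). With the number series of the titles as a covariate, the latter was 0.06 ± 0.229 (limma adjusted p = 0.857).

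Adam9, a sheddase with a role in cell adhesion, was at 18.95, 19.0 and 24.3 FPKM in normal brain, at 51.1, 43.9, 49.3 and 37.2 in NRAS tumors and at 75.7, 88.6, 79.5 and 58.0 in PDGFB tumors. The 3 groups did not overlap. It rose by 1.09 ± 0.17 (adjusted p = 0.00035) in NRAS tumors and by 1.81 ± 0.17 (adjusted p = 1.67e-05) in PDGFB tumors, and NRAS tumors were lower than PDGFB tumors by 0.72 on the log2 scale (-0.72 ± 0.15, adjusted p = 0.00696).

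Adam12 (chromosome 7, 133883199 to 134232146), which sheds HB-EGF and is induced in many tumors, followed the same order with larger steps. Its levels were 1.28, 1.62 and 1.48 FPKM in normal brain, 11.9, 11.2, 17.3 and 2.63 in NRAS tumors and 31.7, 40.6, 43.8 and 26.6 in PDGFB tumors. No groups overlapped, and NRAS tumor 4 was nearest to normal brain. The rise was 2.04 ± 0.44 (adjusted p = 0.00226) in NRAS tumors and 3.87 ± 0.44 (adjusted p = 5.75e-05) in PDGFB tumors, with a difference of -1.83 ± 0.41 between NRAS and PDGFB tumors (adjusted p = 0.008). Adam19, a meltrin like Adam12, had means of 6.45 ± 1.496, 12.1 ± 2.99 and 16.2 ± 4.37 FPKM and rose by 0.80 ± 0.26 (adjusted p = 0.018) and 1.19 ± 0.26 (adjusted p = 0.00231). Without normal brain 1 or 2 its call in NRAS tumors was lost (adjusted p = 0.0584 to 0.0714).

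Adam8 (chromosome 7, 139978932 to 139992562), known from leukocytes, was the ADAM with the largest rise in NRAS tumors. It was at 1.32, 1.43 and 1.05 FPKM in normal brain, at 17.04, 3.19, 15.7 and 27.5 in NRAS tumors and at 1.89, 2.999, 2.11 and 2.39 in PDGFB tumors. NRAS tumors lay above all other libraries, although NRAS tumor 2 was close to PDGFB tumor 2. The fold change was 2.61 ± 0.50 against normal brain (adjusted p = 0.00119) and 2.05 ± 0.46 against PDGFB tumors (adjusted p = 0.00857). In PDGFB tumors against normal brain it was 0.56 ± 0.50 (adjusted p = 0.36), which passed without NRAS tumor 2 (adjusted p = 0.0358) or with all NRAS tumors out of the fit (adjusted p = 0.011). Beside it, the summed FPKM of 7 monocyte and macrophage markers was 3.19 to 3.76 in normal brain, 462.3, 100.4, 892.1 and 419.1 in NRAS tumors 1 to 4, and 3.90 to 9.54 in PDGFB tumors. Of the 7 markers, 6 rose in NRAS tumors and none passed the test in PDGFB tumors, and Chil3 was at 0 in all normal brains. For all genes tested, 32.0% were higher in NRAS tumors and 29.3% in PDGFB tumors. Ccr2, Ly6c2 and Chil3 reached 1 FPKM only in NRAS tumors, so the count of rises supports nothing by itself. NRAS tumor 2 was the lowest of the NRAS tumors for this sum, for Adam8 and for Mmp12, but had the second highest Mmp19 (8.43 FPKM). NRAS tumor 3, with the highest sum, had the highest Mmp19 and was not the highest for Adam8 or Mmp12. The part of these cells in the levels of Adam8, Mmp12 and Mmp19 was not tested.

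Adam15, which is found in endothelium and other cells, fell in PDGFB tumors and missed the threshold in NRAS tumors. It had 38.1, 32.3 and 35.2 FPKM in normal brain, 34.2, 40.8, 46.6 and 47.9 in NRAS tumors and 26.9, 21.7, 22.3 and 26.7 in PDGFB tumors. The PDGFB tumors were below all other libraries. Adam15 fell by 0.51 on the log2 scale (SE 0.14, adjusted p = 0.00885), and NRAS tumors exceeded PDGFB tumors by 0.77 ± 0.13 (adjusted p = 0.00227). In NRAS tumors against normal brain the value was 0.25 ± 0.14 (adjusted p = 0.138), and 0.35 without NRAS tumor 1 (adjusted p = 0.0433).

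Adam11, Adam22 and Adam23 encode ADAMs without protease activity, which act as neuronal receptors of the secreted LGI proteins at synapses and myelinated axons. All of them fell in both models. Adam22 was at 37.5, 42.2 and 46.7 FPKM in normal brain, at 8.90, 18.0, 7.58 and 10.4 in NRAS tumors and at 16.5, 10.5, 16.97 and 13.4 in PDGFB tumors. Adam23 was at 28.9, 26.6 and 39.5 FPKM in normal brain, at 3.55, 12.1, 4.21 and 5.63 in NRAS tumors and at 10.5, 6.38, 6.97 and 8.10 in PDGFB tumors. For Adam11 the values were 38.8, 40.7 and 41.4 FPKM, then 5.15, 20.1, 8.72 and 12.5, and then 8.63, 2.96, 7.34 and 10.01. No tumor reached a normal brain for any of the 3 genes, and NRAS tumor 2 was the highest NRAS tumor for all 3.

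The fold changes in NRAS tumors were -1.88 ± 0.25 for Adam22 (adjusted p = 0.000184), -2.26 ± 0.32 for Adam23 (adjusted p = 0.000255) and -1.85 ± 0.41 for Adam11 (adjusted p = 0.00265). In PDGFB tumors they were -1.51 ± 0.25, -1.86 ± 0.32 and -2.42 ± 0.41 (adjusted p = 0.000563, 0.000676 and 0.000576). None differed between the models past the threshold over all libraries, whereas without NRAS tumor 2 Adam22 and Adam23 did (-0.61 and -0.715, adjusted p = 0.0243 and 0.0241). Of the LGI ligand genes Lgi1 to Lgi4, 3 fell in NRAS tumors and all 4 in PDGFB tumors (medians -1.51 and -1.70), with Lgi1 at 53.2 ± 6.23, 13.5 ± 7.43 and 9.84 ± 5.08 FPKM (n = 3, 4 and 4; -2.04 ± 0.46, adjusted p = 0.00296, and -2.47 ± 0.46, adjusted p = 0.000967). For all genes tested, 30.3% were lower in NRAS tumors and 29.2% in PDGFB tumors. The summed FPKM of 8 neuron markers was 2076 to 2580 in normal brain, 209.7, 1125, 470.3 and 540 in NRAS tumors 1 to 4, and 628.9, 112.8, 466 and 578.3 in PDGFB tumors 1 to 4. The NRAS tumor with the highest sum (number 2) also had the highest Adam11, Adam22, Adam23, Mmp17 and Mmp24 of its group, and the PDGFB tumor with the lowest sum (number 2) had the lowest of each in its group. At the other ends, NRAS tumor 1, with the lowest sum of its group, had the lowest of each except Adam22. PDGFB tumor 1, with the highest sum of its group, had the highest of each except Adam11 and Adam22. What part the share of neurons has in these falls was not tested.

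Adam1a, known for its role in sperm, fell from 3.12 ± 0.41 FPKM in normal brain to 1.56 ± 0.47 in NRAS tumors (-0.70 ± 0.17, adjusted p = 0.0042; -0.49 and adjusted p = 0.074 within title numbers 1834 to 1838). It had 2.05 ± 0.23 FPKM in PDGFB tumors (-0.44 ± 0.17, adjusted p = 0.0442). The call in PDGFB tumors was lost in 13 of 19 alternatives, 8 of which left out 1 library (any normal brain, any PDGFB tumor or NRAS tumor 1; adjusted p = 0.0507 to 0.153). With the number series as a covariate, the value in PDGFB tumors was -0.007 ± 0.225 (limma adjusted p = 0.984). Adam1a lies over Mapkapk5 on the same strand, so its reads may be shared with that gene.

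**Figure D3:**
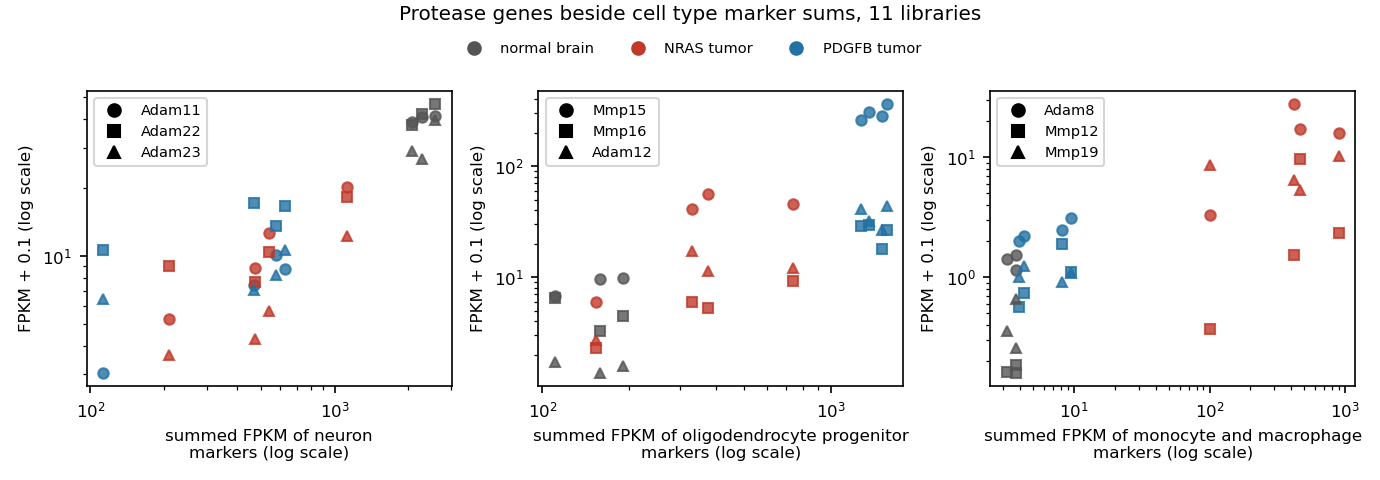
FPKM + 0.1 of 9 genes (y, log scale; a shape for each gene) against the summed FPKM of a marker list (x, log scale) in 11 libraries, coloured by group: neuron markers with Adam11, Adam22 and Adam23 (left), oligodendrocyte progenitor markers with Mmp15, Mmp16 and Adam12 (middle), monocyte and macrophage markers with Adam8, Mmp12 and Mmp19 (right). Normal brains are to the right of all tumors in the left panel, PDGFB tumors in the middle panel and NRAS tumors in the right panel.

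Among the 14 ADAMTS genes, 4 rose and 6 fell in NRAS tumors, and 6 rose and 2 fell in PDGFB tumors. The shares over all genes tested were 32.0% higher and 30.3% lower in NRAS tumors, and 29.3% and 29.2% in PDGFB tumors. Those ADAMTS genes that rose in both were Adamts1, Adamts7, Adamts9 and Adamts14, of which Adamts7 and Adamts14 entered only through tumor libraries. Adamts16 and Adamts17, among those that fell in NRAS tumors, reached 1 FPKM in no NRAS tumor. Adamts1, a protease of versican and aggrecan that also limits vessel growth, was at 3.22, 4.16 and 3.13 FPKM in normal brain, at 21.6, 22.9, 28.8 and 20.7 in NRAS tumors and at 21.4, 17.7, 19.1 and 13.2 in PDGFB tumors. Each tumor was above each normal brain. The rise was 2.44 ± 0.18 (adjusted p = 4.39e-06) and 2.05 ± 0.18 (adjusted p = 1.13e-05), and the models differed by 0.39 ± 0.16 (adjusted p = 0.106).

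Adamts9, which also cuts versican, had 1.45, 1.89 and 0.689 FPKM in normal brain, 7.92, 4.66, 9.01 and 8.11 in NRAS tumors and 8.41, 14.2, 9.65 and 6.002 in PDGFB tumors. The tumors again did not overlap normal brain, and the models overlapped. Fold changes were 1.85 ± 0.29 (adjusted p = 0.000409) and 2.15 ± 0.29 (adjusted p = 0.00016). Adamts7, a protease of cartilage oligomeric matrix protein, went from 0.167, 0.203 and 0.213 FPKM to 4.86, 3.52, 2.45 and 9.87 in NRAS tumors and to 2.05, 3.69, 3.16 and 2.21 in PDGFB tumors. It rose by 2.23 ± 0.33 (adjusted p = 0.000287) and by 1.64 ± 0.33 (adjusted p = 0.0015). Its last 6045 bases overlap Tbc1d2b on the other strand, which had group means of 6.23, 8.41 and 4.73 FPKM.

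The procollagen N-proteinases, Adamts2, Adamts3 and Adamts14, which trim fibrillar procollagens, went different ways. Adamts14 (chromosome 10, 61197112 to 61273438) was at 0.286, 0.377 and 0.205 FPKM in normal brain, at 11.9, 17.4, 11.7 and 7.56 in NRAS tumors and at 1.91, 7.15, 2.56 and 2.18 in PDGFB tumors. The groups did not overlap, and PDGFB tumor 2 was nearest to the NRAS tumors. Its rise was 3.30 ± 0.35 (adjusted p = 4.23e-05) and 1.65 ± 0.35 (adjusted p = 0.00199), and NRAS tumors exceeded PDGFB tumors by 1.65 ± 0.32 (adjusted p = 0.00445; 1.36 and adjusted p = 0.0643 within title numbers 2038 to 2046).

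Adamts2 fell in both models, from 4.73, 3.37 and 3.83 FPKM in normal brain to 0.731, 1.20, 0.594 and 1.39 in NRAS tumors, and in PDGFB tumors to 0.994, 0.380, 0.646 and 1.08. All 8 tumors were below the normal range (-1.34 ± 0.20, adjusted p = 0.000356, and -1.50 ± 0.20, adjusted p = 0.000176). Adamts3, which also processes pro-VEGFC, was at 3.74, 6.93 and 8.85 FPKM in normal brain, at 1.23, 2.63, 2.13 and 1.41 in NRAS tumors and at 6.53, 2.57, 7.89 and 5.17 in PDGFB tumors. NRAS tumors were below all normal brains, whereas PDGFB tumors were not apart from them. It fell in NRAS tumors (-1.36 ± 0.34, adjusted p = 0.00492) and had -0.21 ± 0.34 in PDGFB tumors (adjusted p = 0.611). The difference between the models was -1.15 ± 0.31 (adjusted p = 0.0202), which did not pass without NRAS tumor 4 or PDGFB tumor 1 or 3 (adjusted p = 0.0544 to 0.0635), with all rows tested, with the number series as a covariate or within title numbers 2038 to 2046 (adjusted p = 0.0535 to 0.062).

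Adamts15 and Adamts20, further proteases of versican, fell in NRAS tumors, and their changes in PDGFB tumors missed the threshold. Adamts20 was at 3.13, 3.33 and 3.70 FPKM in normal brain, at 1.07, 2.22, 1.46 and 1.10 in NRAS tumors and at 5.91, 5.81, 4.21 and 2.90 in PDGFB tumors. NRAS tumors were below all other libraries. The values were -0.85 ± 0.23 in NRAS tumors (adjusted p = 0.00763), 0.34 ± 0.23 in PDGFB tumors (adjusted p = 0.22; 0.515 and adjusted p = 0.0497 without PDGFB tumor 4) and -1.20 ± 0.21 between NRAS and PDGFB tumors (adjusted p = 0.00276). Adamts15 had 3.09, 2.04 and 3.19 FPKM in normal brain, 0.356, 1.02, 1.33 and 0.404 in NRAS tumors and 1.55, 1.11, 2.56 and 2.21 in PDGFB tumors. NRAS and PDGFB tumors overlapped here. It fell in NRAS tumors (-1.11 ± 0.25, adjusted p = 0.00301), and the difference of -0.69 ± 0.23 between the models (adjusted p = 0.0472) was lost in 13 of 20 alternatives, 8 of them with 1 library left out (any normal brain, NRAS tumor 1 or 4, or PDGFB tumor 1, 3 or 4; adjusted p = 0.0546 to 0.131).

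Adamts16 fell in both models, from 1.56, 1.68 and 1.64 FPKM in normal brain to 0.178, 0.728, 0.302 and 0.357 in NRAS tumors and to 0.475, 0.0548, 0.620 and 0.280 in PDGFB tumors. No tumor reached the normal range (-0.93 ± 0.18, adjusted p = 0.00148, and -0.97 ± 0.18, adjusted p = 0.00114). Adamts16 passed the filter through the normal brains alone, the group where it is high, so these falls support nothing by themselves. Adamts8 was at 0.623, 1.11 and 1.44 FPKM in normal brain, at 0.610, 0.842, 0.821 and 1.03 in NRAS tumors and at 2.29, 1.16, 2.60 and 1.96 in PDGFB tumors. PDGFB tumors lay above all NRAS tumors but overlapped normal brain. NRAS tumors were lower than PDGFB tumors by 0.70 on the log2 scale (-0.70 ± 0.19, adjusted p = 0.0207), which did not pass without PDGFB tumor 1 or 3 (adjusted p = 0.0565 to 0.0666), with the number series as a covariate (adjusted p = 0.0795) or within title numbers 2038 to 2046 (adjusted p = 0.116). The rise over normal brain, 0.54 ± 0.21 (adjusted p = 0.0426), was lost in 11 of 19 alternatives. Of these, 6 left out 1 library (normal brain 1 or 2, NRAS tumor 3, or PDGFB tumor 1, 3 or 4; adjusted p = 0.0535 to 0.181).

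Adamts10, which binds fibrillin microfibrils, rose in PDGFB tumors (6.07 ± 0.165 to 10.4 ± 1.10 FPKM; 0.68 ± 0.14, adjusted p = 0.00154) and was at 7.14 ± 0.98 FPKM in NRAS tumors. The models differed by -0.49 ± 0.13 (adjusted p = 0.0168). That call was lost without PDGFB tumor 3 (-0.43, adjusted p = 0.0622) and within title numbers 2038 to 2046 (adjusted p = 0.0742). Adamts17 fell in NRAS tumors (1.03 ± 0.26 to 0.463 ± 0.212 FPKM; -0.47 ± 0.18, adjusted p = 0.0386). That call was lost in 9 of 20 alternatives, 6 of which left out 1 library (normal brain 1 or 3, NRAS tumor 1, 3 or 4, or PDGFB tumor 3; adjusted p = 0.0528 to 0.139). No NRAS tumor reached 1 FPKM, so Adamts17 passed the filter only through the groups where it is higher. Its fall supports nothing by itself. Adamts4, an aggrecanase, and Adamts6 passed no comparison over all libraries, with means between 5.86 and 9.44 FPKM and between 1.40 and 2.54 FPKM. Without PDGFB tumor 4, Adamts6 passed in PDGFB tumors against normal brain (0.72, adjusted p = 0.00541) and between the models (-0.63, adjusted p = 0.0195).

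The ADAMTSL proteins have no protease domain and bind fibrillin microfibrils. Adamtsl3 was at 0.404, 0.807 and 0.413 FPKM in normal brain, at 6.31, 10.7, 8.21 and 2.37 in NRAS tumors and at 19.7, 5.74, 15.7 and 7.05 in PDGFB tumors. All tumors were above normal brain and the models overlapped (2.23 ± 0.46, adjusted p = 0.00183, and 2.93 ± 0.46, adjusted p = 0.000381). Adamtsl2 had 3.84, 2.42 and 3.66 FPKM in normal brain, 0.613, 1.33, 1.06 and 0.498 in NRAS tumors and 3.71, 2.17, 3.97 and 3.52 in PDGFB tumors. NRAS tumors were apart from both other groups, which overlapped. It was lower in NRAS tumors than in normal brain (-1.21 ± 0.22, adjusted p = 0.001) and than in PDGFB tumors (-1.21 ± 0.21, adjusted p = 0.00228).

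Adamtsl4 had the opposite arrangement: 4.76, 2.47 and 3.43 FPKM in normal brain, 2.90, 5.19, 4.78 and 5.68 in NRAS tumors and 1.40, 0.730, 0.689 and 1.504 in PDGFB tumors. PDGFB tumors were below all other libraries (-1.12 ± 0.25 against normal brain, adjusted p = 0.00261), and NRAS tumors exceeded them by 1.43 ± 0.23 (adjusted p = 0.00176). Adamtsl5 passed no comparison over all libraries, but passed between the models without NRAS tumor 3 (0.83, adjusted p = 0.0379), and had means of 1.27 ± 0.59, 1.62 ± 0.99 and 0.593 ± 0.175 FPKM.

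The 4 inhibitors each had a pattern of their own. Timp1 (chromosome X, 20870166 to 20874735) encodes the inducible, secreted TIMP. It was at 0.301, 0.687 and 0.751 FPKM in normal brain, at 245, 104, 271 and 158 in NRAS tumors and at 37.0, 24.4, 28.5 and 37.2 in PDGFB tumors. The 3 groups lay far apart without overlap. With 6.87 ± 0.30 (adjusted p = 1.7e-07) in NRAS tumors and 4.37 ± 0.30 (adjusted p = 3.26e-06) in PDGFB tumors, Timp1 had the largest rise of the 46 members in NRAS tumors and the second largest, after Mmp15, in PDGFB tumors. NRAS tumors exceeded PDGFB tumors by 2.501 ± 0.28 (adjusted p = 0.00033).

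Timp2 (chromosome 11, 118301069 to 118355740), which also serves as the link by which MMP14 activates pro-MMP2, fell in both models. Its levels were 163, 144 and 96.2 FPKM in normal brain, 52.1, 50.1, 64.3 and 74.5 in NRAS tumors and 42.7, 28.7, 57.5 and 46.7 in PDGFB tumors. All tumors were below all normal brains (-1.13 ± 0.25, adjusted p = 0.00253, and -1.60 ± 0.25, adjusted p = 0.000354), and the models differed by 0.47 ± 0.23 (adjusted p = 0.154). Mmp14 and Mmp2 thus rose in both models while Timp2 fell.

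Timp3 (chromosome 10, 86300372 to 86349506) is bound to the matrix and inhibits ADAM17 and ADAMTS enzymes as well as MMPs. It was at 47.3, 45.3 and 42.3 FPKM in normal brain, at 34.2, 27.6, 75.5 and 35.0 in NRAS tumors and at 22.2, 21.2, 23.4 and 22.8 in PDGFB tumors. PDGFB tumors were tightly grouped below all other libraries, and among NRAS tumors number 3 was above normal brain and the others below it. Timp3 fell by 0.97 on the log2 scale in PDGFB tumors (SE 0.26, adjusted p = 0.00836) and had -0.17 ± 0.26 in NRAS tumors (adjusted p = 0.59). Without NRAS tumor 3 the latter was -0.47 (adjusted p = 0.0087), and within title numbers 1834 to 1838 it was -0.54 (adjusted p = 0.0379). NRAS exceeded PDGFB tumors by 0.80 ± 0.24 (adjusted p = 0.0326), a call lost without NRAS tumor 4 or any PDGFB tumor (adjusted p = 0.0506 to 0.0705), with all rows tested (adjusted p = 0.0779) and with normal brains out of the fit (adjusted p = 0.0707).

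Timp4 (chromosome 6, 115241892 to 115252205), a TIMP of brain and heart, passed no comparison in the fit of group means alone. It was at 28.3, 17.7 and 19.9 FPKM in normal brain, at 25.7, 32.6, 15.9 and 7.54 in NRAS tumors and at 27.1, 30.8, 23.8 and 39.5 in PDGFB tumors, and all groups overlapped (-0.25 ± 0.39, adjusted p = 0.602, and 0.45 ± 0.39, adjusted p = 0.347; between the models -0.70 ± 0.36, adjusted p = 0.183). With the number series as a covariate Timp4 passed in PDGFB tumors against normal brain (1.77, adjusted p = 0.0143) and between the models (-1.36, adjusted p = 0.00724). Within title numbers 2038 to 2046 the latter also passed (-1.36, adjusted p = 0.0196).

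Timp1, Timp3 and Timp4 each lie inside a synapsin gene on the other strand, in Syn1, Syn3 and Syn2. How strand was handled in the counting was not found in the sources used here, so reads of the paired genes may not be fully separated. Syn1 had means of 162 ± 16.4, 44.0 ± 27.1 and 49.1 ± 22.0 FPKM in normal brain, NRAS tumors and PDGFB tumors (n = 3, 4 and 4). Syn2 had 156.7 ± 20.0, 40.3 ± 19.0 and 35.1 ± 16.5 FPKM. For Syn3 the means were 5.81 ± 0.30, 2.07 ± 0.82 and 2.66 ± 1.10 FPKM. All 3 synapsins fell in both models. Timp1 rose in both, Timp3 fell in PDGFB tumors and missed the threshold in NRAS tumors, and Timp4 missed it in both. Some other members share shorter stretches with a gene on the other strand, among them Adam17 with Iah1 (311 bases), Mmp11 with Chchd10 (3367 bases) and Mmp28 with 1700020L24Rik (466 bases). Timp2 overlaps Cep295nl on the same strand by 10141 bases.

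**Figure D4:**
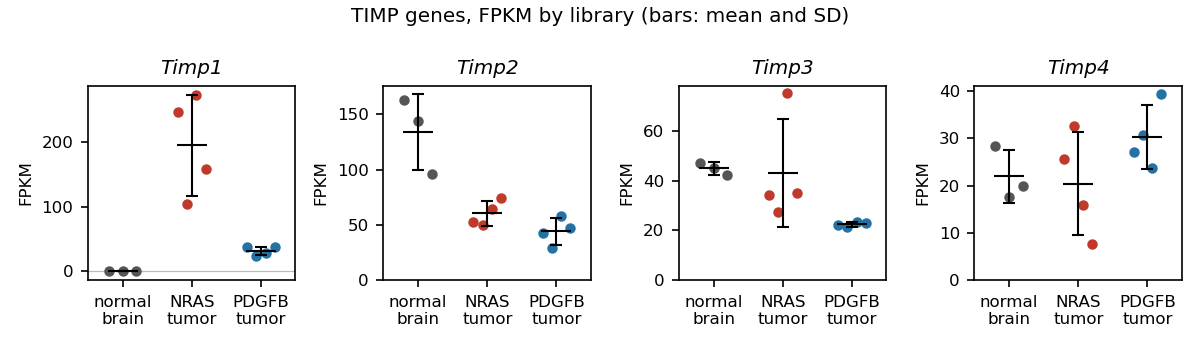
FPKM by library (points) with group mean and SD (bars) of the 4 TIMP genes in normal brain (n = 3), NRAS tumors (n = 4) and PDGFB tumors (n = 4), each on its own linear axis. Timp1 is near 0 in normal brain and highest in NRAS tumors, Timp2 is lower in both models, Timp3 is lower in PDGFB tumors with NRAS tumor 3 at 75.5 FPKM, and Timp4 overlaps throughout.

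The direct test between the models sorts the members that differ. Its fold change does not use normal brain, but its spread is estimated with the normal brains in the fit. With normal brains out of the fit, Timp3 and Adamts15 lost the call (limma adjusted p = 0.0707 and 0.0786). Higher in NRAS than in PDGFB tumors were 9: Timp1, Mmp2, Mmp19 and Adamts14, which rose over normal brain in each model, Adam8, which rose in NRAS tumors, Timp3, Adam15 and Adamtsl4, which fell in PDGFB tumors, and Mmp28. Lower in NRAS than in PDGFB tumors were 11: Mmp15, Adam9 and Adam12, which rose in each model, Mmp9, Mmp16, Adamts8 and Adamts10, which rose in PDGFB tumors, and Adamts3, Adamts15, Adamts20 and Adamtsl2, which fell in NRAS tumors. Of 6 ADAMTS genes that passed, 5 were lower in NRAS tumors, where 12.2% of all genes were lower and 14.3% higher. Among these 5, Adamts20 held in every alternative, whereas Adamts3, Adamts8, Adamts10 and Adamts15 each lost the call in some, as did Timp3, Mmp2, Mmp28 and Adamts14 among the higher ones. Mmp12 and Adamts17, called against normal brain in NRAS tumors only, did not pass this test (0.74 ± 0.51, adjusted p = 0.31, and -0.48 ± 0.17, adjusted p = 0.052). Adamts17 passed it in 4 of 20 alternatives, 2 of them without NRAS tumor 2 or PDGFB tumor 2 (adjusted p = 0.023 and 0.0405).

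**Figure D5:**
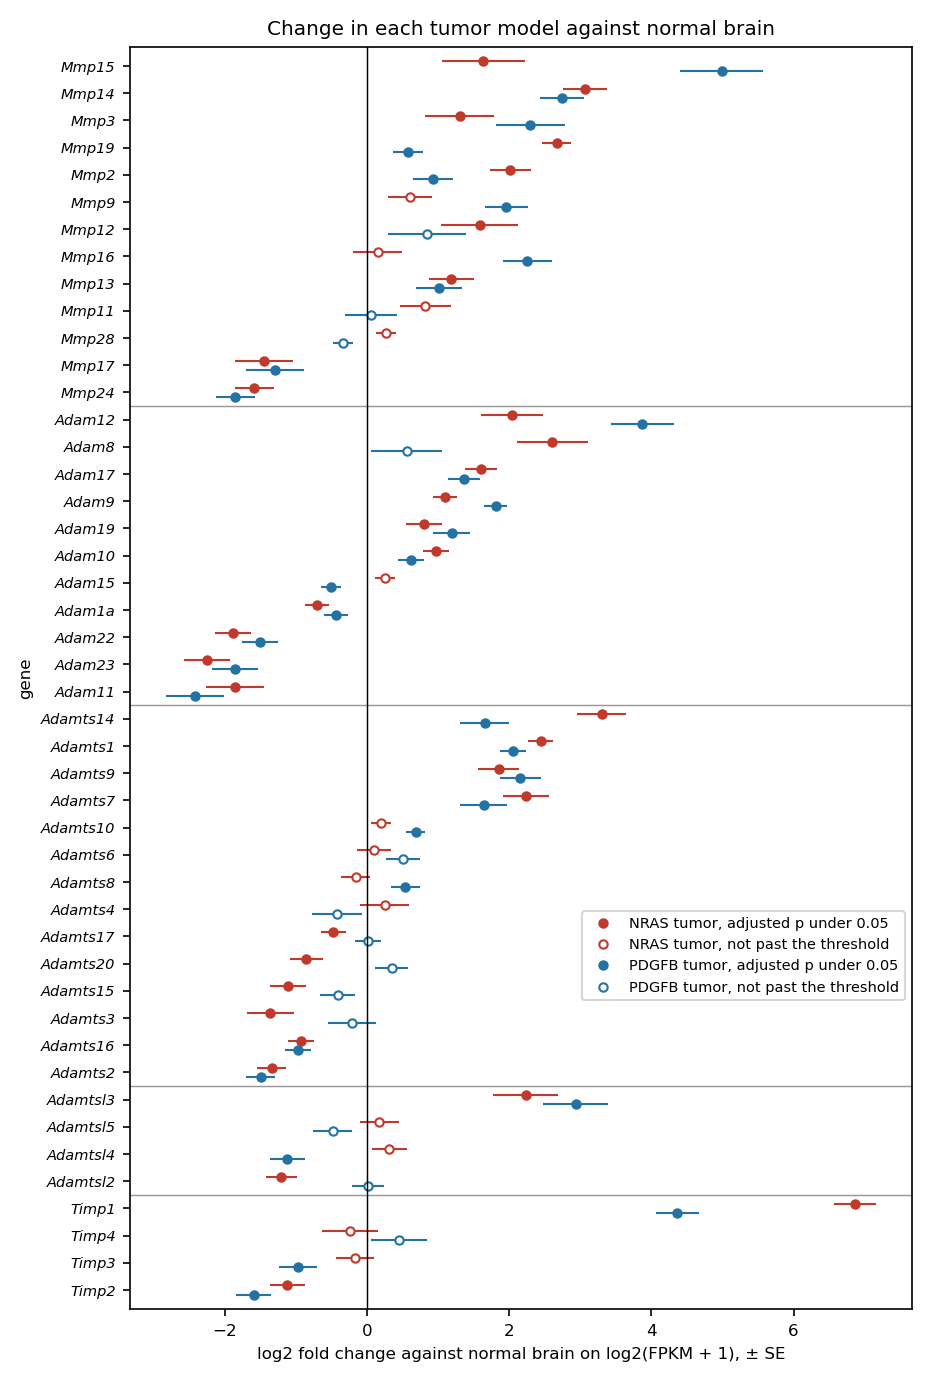
Fold change on log2(FPKM + 1) against normal brain (points, ± SE) of 46 genes in NRAS tumors (red) and PDGFB tumors (blue); filled points have a limma adjusted p under 0.05. Timp1 lies farthest right for NRAS tumors and Mmp15 for PDGFB tumors, and Adam11, Adam22, Adam23, Mmp17 and Mmp24 lie left of 0 for both.

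Counts against normal brain depended on how PDGFB tumors are tied to it. With the number series of the titles as a covariate, 14 members rose and 7 fell in PDGFB tumors, where 32.9% of all genes tested were called, and 20 of the 33 calls were kept. Over all genes the higher calls went from 4240 to 2463 and the lower ones from 4230 to 2305. The 13 that were lost are Mmp2, Mmp3, Mmp13, Mmp17, Mmp19, Adam1a, Adam10, Adam17, Adam22, Adam23, Adamts7, Adamts8 and Adamts16 (adjusted p = 0.0508 to 0.984). Among members with a mean of at least 1 FPKM in both groups, 11 of 30 rose and 9 fell in NRAS tumors, and 13 of 33 rose and 10 fell in PDGFB tumors. Over all 12608 and 12416 genes of that kind, 28.9% were higher and 30.5% lower in NRAS tumors, and 30.5% higher and 28.3% lower in PDGFB tumors.

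Genes that work with these proteases moved as follows. Of the genes described below, Areg reached 1 FPKM only in tumors, and Rhbdf2 and Adamdec1 only in NRAS tumors. Some genes that are only counted did the same, among them the substrates Ereg and Btc. They were tested through the groups where they are high, so their rises support nothing by themselves. Of 8 partners of ADAM10 and ADAM17 that were tested (TspanC8 tetraspanins, the iRhoms and FRMD8, which carry the sheddases to the surface), 4 rose and 1 fell in NRAS tumors, and 2 rose and 3 fell in PDGFB tumors, with medians of 0.39 and -0.14. Beside these and the lists below stand the shares over all genes tested. They were 32.0% higher and 30.3% lower in NRAS tumors, and 29.3% and 29.2% in PDGFB tumors. The medians over all genes were 0.01 and 0.04. Rhbdf2, the iRhom of immune cells, rose in NRAS tumors (0.380 ± 0.088 to 7.99 ± 4.44 FPKM; 2.56 ± 0.34, adjusted p = 0.000166) and was at 0.792 ± 0.108 FPKM in PDGFB tumors (0.38 ± 0.34, adjusted p = 0.362). Frmd8, which stabilises the iRhoms, rose in both (6.80 ± 1.52 to 28.6 ± 4.77 and 40.1 ± 7.69 FPKM; 1.93 ± 0.19 and 2.40 ± 0.19, adjusted p = 3.18e-05 and 7.68e-06).

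Of 19 tested substrates of ADAM10 or ADAM17, 13 rose and 3 fell in NRAS tumors (median 2.14), while 5 rose and 5 fell in PDGFB tumors (median 0.30), and 12 were higher and 2 lower in NRAS than in PDGFB tumors. For all genes tested, 32.0% were higher and 30.3% lower in NRAS tumors, and 29.3% and 29.2% in PDGFB tumors. Between the models 14.3% were higher and 12.2% lower in NRAS tumors. Areg, an EGF receptor ligand, rose from 0.0467 ± 0.081 to 31.6 ± 21.8 FPKM in NRAS tumors (4.67 ± 0.49, adjusted p = 4.07e-05) and to 2.35 ± 0.71 FPKM in PDGFB tumors (1.66 ± 0.49, adjusted p = 0.013). Cd44, the hyaluronan receptor, rose from 2.05 ± 0.07 to 72.1 ± 17.01 FPKM (4.55 ± 0.19, adjusted p = 1.47e-07) and to 18.8 ± 3.83 FPKM (2.68 ± 0.19, adjusted p = 3.44e-06).

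Of 5 tested inhibitors outside the TIMPs, 1 rose and 4 fell in NRAS tumors, and 1 rose and 3 fell in PDGFB tumors (medians -2.33 and -2.13). Those that fell in both were Spock1, Spock2 and Spock3, the testican proteoglycans. Spock3 was at 72.1 ± 13.4, 8.74 ± 5.92 and 7.999 ± 4.35 FPKM (-3.08 ± 0.47, adjusted p = 0.000344, and -3.14 ± 0.47, adjusted p = 0.000283). Spock1 was at 67.9 ± 3.24, 14.3 ± 8.11 and 10.9 ± 5.89 FPKM (-2.33 ± 0.49, adjusted p = 0.00193, and -2.70 ± 0.49, adjusted p = 0.000822). The gene that rose was A2m, for alpha-2-macroglobulin, a trap for many proteases, with 1.76 ± 0.23, 13.4 ± 4.94 and 8.23 ± 3.30 FPKM. Reck, a membrane inhibitor of MMPs, fell in NRAS tumors. Beside the testicans, 7 of 8 neuron markers fell in NRAS tumors and 8 of 8 in PDGFB tumors (medians -2.28 and -2.63), and the part of neurons in these falls was not tested. Shares for all genes tested were 32.0% higher and 30.3% lower in NRAS tumors, and 29.3% and 29.2% in PDGFB tumors.

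Among 4 proprotein convertases, which activate membrane-type MMPs, ADAMs and ADAMTSs, the medians were 0.32 and 0.37. Furin rose in NRAS tumors (7.28 ± 0.42 to 23.1 ± 9.52 FPKM; 1.46 ± 0.26, adjusted p = 0.000751) and was at 8.06 ± 0.32 FPKM in PDGFB tumors (0.13 ± 0.26, adjusted p = 0.686). Pcsk5 fell in both (2.99 ± 0.69 to 1.02 ± 0.39 and 0.746 ± 0.273 FPKM; -0.99 ± 0.20, adjusted p = 0.00172, and -1.19 ± 0.20, adjusted p = 0.000589), and Pcsk6 and Pcsk7 rose in PDGFB tumors.

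Among 10 proteoglycan, collagen and other substrates of ADAMTS enzymes, 1 rose and 1 fell in NRAS tumors, and 3 rose and 1 fell in PDGFB tumors (medians 0.31 and 0.76). Shares for all genes tested were 32.0% higher and 30.3% lower in NRAS tumors, and 29.3% and 29.2% in PDGFB tumors. Col3a1, a fibrillar procollagen, rose in PDGFB tumors (2.98 ± 0.45 to 24.8 ± 11.2 FPKM; 2.54 ± 0.49, adjusted p = 0.00122). Vcan, or versican, rose in both (6.04 ± 0.88 to 22.8 ± 5.36 and 35.0 ± 12.02 FPKM; 1.74 ± 0.24, adjusted p = 0.000221, and 2.304 ± 0.24, adjusted p = 3.82e-05). Of 8 other metalloproteases, 2 were tested: Bmp1, the procollagen C-proteinase, rose in both (17.7 ± 4.42 to 53.6 ± 11.6 and 48.4 ± 1.66 FPKM; 1.55 ± 0.19 and 1.43 ± 0.19, adjusted p = 9.82e-05 and 0.00013). Adamdec1, an ADAM-like protease of macrophages, rose in NRAS tumors alone (1.66 ± 0.46, adjusted p = 0.00854), the only libraries where it reached 1 FPKM.

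The table holds FPKM without read counts. Relative depth, read from the steps of low values, ran from 0.776 to 1 over the libraries, and 12705 to 13923 genes reached 1 FPKM per library. Markers of neurons and myelinating oligodendrocytes were present in normal brain and 7 of 8 and 6 of 6 of them fell in NRAS tumors, as did 8 of 8 and 6 of 6 in PDGFB tumors. For all genes tested, 30.3% were lower in NRAS tumors and 29.2% in PDGFB tumors. T and NK cell markers summed to 4.87 to 120 FPKM in NRAS tumors and 0.414 to 1.26 in PDGFB tumors, and Cd3e and Cd3d were at 0 in all normal brains.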

How the data were processed

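Illumina RNA libraries were made from 11 samples, per the labels' protocols. Their expression was deposited by the authors as FPKM, a unit scaled by transcript length and by the total of a library; very abundant transcripts therefore lower the rest. TopHat2 2.0.13, Cufflinks 2.2.1 and mm10 are named, per the submitters' processing notes; settings, strand and annotation were not found in these sources. Of 24347 rows, 27 with gene names turned into dates were left out. With no counts, depth is known only in relative terms and low values rest on few reads.

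Group means were fitted over all libraries together (limma 3.58.1 in R 4.3.3, lmFit and eBayes with trend) on log2(FPKM + 1), for 14491 genes that reached 1 FPKM in 3 or more libraries, with Benjamini-Hochberg adjustment and a threshold of 0.05. The fit was also run on simulated data with 200 changed genes, independent noise and no effect of the title numbers. That setting has far fewer changed genes than these data and cannot show how the fit handles such effects. Members and lists were chosen with earlier results of these data known. Values in every library are given for the TIMPs and, per family and comparison, for up to 3 called members with the highest and up to 3 with the lowest fold change; of other lists, up to 2 called genes with the largest change, and further ones (A2m, Reck, Spock2, Pcsk6, Pcsk7) after their values were seen. Positions are from GENCODE M21 (GRCm38) and promoters from RefSeq (GRCm38.p6). Protein sequences were not used here. The alternatives tried were another pseudocount, no filter, other scalings, other samples or terms in the fit, and leaving out each library.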

Additional observations from a re-analysis of the deposited data

Results flagged for a closer look

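In 92 groups of 4 tumors (46 members in 2 models), 5 had a library whose gap to the nearest other exceeded the 95% critical value of Dixon's ratio; chance gives about 1 in 20 groups. In PDGFB tumors, PDGFB tumor 2 was apart for Adamts14 (7.15 FPKM, others 1.91 to 2.56) and for Mmp14 (65.7 FPKM, others 32.6 to 38.2), and PDGFB tumor 4 for Mmp11 (1.60 FPKM, others 1.003 to 1.09). In NRAS tumors, NRAS tumor 2 was apart for Mmp17 (26.9 FPKM, others 8.95 to 11.7), and NRAS tumor 3 for Timp3 (75.5 FPKM, others 27.6 to 35.0).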

How the results depend on the processing

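No fold change of a member reversed among those called. Of the members called, 25 of 33 kept their call in all 20 alternatives for NRAS tumors against normal brain, 20 of 33 in all 19 for PDGFB tumors against normal brain, and 12 of 20 in all 20 between the models. Among members with a mean of at least 1 FPKM in both groups, which are fewer, 11 of 30 rose and 9 fell in NRAS tumors, and 13 of 33 rose in PDGFB tumors. Over all genes of that kind, 28.9% were higher and 30.5% lower in NRAS tumors, and 30.5% were higher in PDGFB tumors. With the number series of the titles as a covariate, 7 members fell in PDGFB tumors instead of 12; the cause was not tested. With 1 library left out, the members that rose and fell in NRAS tumors numbered 15 to 20 and 13 to 14, those in PDGFB tumors 17 to 22 and 10 to 13, and those higher and lower in NRAS than in PDGFB tumors 8 to 10 and 7 to 14, the lowest, 7, without PDGFB tumor 3. Deviations of same-numbered samples from their group means had correlations of -0.499 to 0.158. With so few libraries per group, these cannot show whether the numbers pair samples, which the labels do not state. The matches that the titles do state join samples of different replicate numbers. With those matches as a random block, 19 members rose and 14 fell in NRAS tumors, and 21 rose and 13 fell in PDGFB tumors. Between the models, 9 were higher and 11 lower in NRAS tumors under that block. With the replicate number as a block, 17 members rose and 13 fell in NRAS tumors, and 20 rose and 10 fell in PDGFB tumors. Between the models, 9 were then higher and 9 lower in NRAS than in PDGFB tumors. Among the calls that this block ended were Adamts10 between the models (limma adjusted p = 0.0523) and Mmp2 and Mmp17 in PDGFB tumors against normal brain (adjusted p = 0.0508 and 0.0612). Other scalings moved the median of all genes by at most 0.086. Depth limits members near 1 FPKM, such as Adamts17, Mmp12 and Mmp13.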
